A study of Mus musculus with 29 samples.

Results

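The genes described here build the machinery by which mitochondria fuse and divide. Mfn1, Mfn2 and Opa1 carry out fusion, and Oma1 cleaves Opa1. Dnm1l, Fis1 and Mff act in fission, and Pink1 belongs to the quality control that removes damaged mitochondria. They were taken by symbol, 8 of the 22537 gene symbols in the count table, and all 8 had enough counts to be tested in each comparison. RNA came from the whole tibialis anterior (TA), a fast muscle of the lower leg, of male C57BL/6 mice from the aging colony of the National Institute on Aging. The groups were 7 adult mice at 6m, 7 mice at 24m and 8 mice at 28m, which the labels give as 28 months or more, with no treatment in any group and tests of physical function in all of them before the muscle was taken. Each library held the RNA of 1 mouse after poly-A enrichment, and the first sequencing run held the 24m mice and the second the 28m mice. Libraries of the same 7 mice at 6m were prepared anew for each run, which gave 29 libraries from 22 mice, and each old group was compared with the 6m libraries of its own run. Whole muscle holds cells other than fibres, so that fewer cells of a type and less RNA per cell cannot be told apart.

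Mitochondria in a muscle fibre form a network that is joined and cut continually. The outer membranes are fused by the mitofusins Mfn1 and Mfn2 and the inner membranes by the GTPase Opa1, which also holds the cristae in shape and is cleaved by the protease Oma1 when the inner membrane loses its potential. Division is carried out by Drp1, the product of Dnm1l, a dynamin-like GTPase that is drawn from the cytosol to the outer membrane, where Mff is a receptor for it and Fis1 a further anchored adaptor. Pink1 is a kinase that gathers on depolarised mitochondria and recruits the ubiquitin ligase Parkin, the step that opens mitophagy. Loss of Opa1 or of both mitofusins from mouse muscle is known to cause wasting of the fibres.

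Total counts on genes were between 17633475 and 33499162 per library, and the lowest count of any of the 8 genes in any library was 522, for Oma1. Values of single libraries are given as CPM, counts scaled to a common library size with edgeR's TMM factors over all 29 libraries. Libraries differed in how far short genes were counted over long ones, given here as the slope of log2 CPM, against the mean of all libraries, per doubling of exonic length. The slope was between 0.106 and 0.146 in the second-run 6m libraries and between -0.367 and 0.070 in the 28m libraries, so that the groups did not overlap. In the first run it was -0.193 in 6m replicate 4 and -0.421 in 24m replicate 4, against 0.052 or more in the other 6m libraries and -0.0058 or more in the other 24m libraries. These 2 libraries stood apart from their groups, and results that rest on them are given with and without them. The muscle markers Ckm, Acta1, Mb, Des and Ttn together held between 74499 and 99629 CPM at 28m and between 75102 and 80233 CPM at 6m in that run. At 28m, 24.3% of all genes tested were called higher and 22.9% lower at an adjusted p under 0.05 by edgeR. Of the 5 muscle markers, Mb and Des were higher and Ttn lower. Of 6 fast-fibre genes 3 were higher and 1, Myh4, lower, and of 5 slow-fibre genes 2 were higher, Tnnt1 (adjusted p = 0.017, edgeR) and Tnni1 (adjusted p = 0.027). With the transcript length trend removed, Des was the 1 gene of these 16 that passed (31.7% of all genes did), and with the exonic trend removed 5 did (37.3% of all genes), Des and Tnni1 among them; the markers named here were picked after their values were seen. Of the markers of other cells, all 4 endothelial genes fell at 28m, with a summed level between 157 and 275 CPM against 319 to 350 CPM at 6m. With the exonic trend removed 2 of the 4 were lower, and with the transcript trend removed 3. No immune gene of 5 tested, no tendon gene of 3 and no erythrocyte gene of 1 was called at 28m, while 1 of 4 adipocyte and 1 of 4 Schwann cell genes were higher and 2 of 4 fibroblast genes lower. Both fibroblast calls were lost under either correction, and the adipocyte call with the transcript trend removed. The part of fibre type and of these cells in the values below was not tested.

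At 28m, the fusion genes Opa1, Mfn2 and Mfn1 were lower and Fis1, Mff and Pink1 higher than at 6m. Opa1 decreased by 31.4%, Mfn2 by 23.6% and Mfn1 by 17.3%, while Fis1 rose by 71.7%, Pink1 by 24.8% and Mff by 13.9%. In the quasi-likelihood test of edgeR, with p-values adjusted by the Benjamini-Hochberg method across the table, 6 of the 8 genes had an adjusted p under 0.05, 3 lower and 3 higher. Of all 12994 genes tested, 47.3% passed, 24.3% higher and 22.9% lower, and the count of 6 is to be read against that share. The median log2 fold change of the 8 genes was -0.10, beside 0.01 over all genes tested. Oma1 and Dnm1l did not pass.

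**Figure D1:**
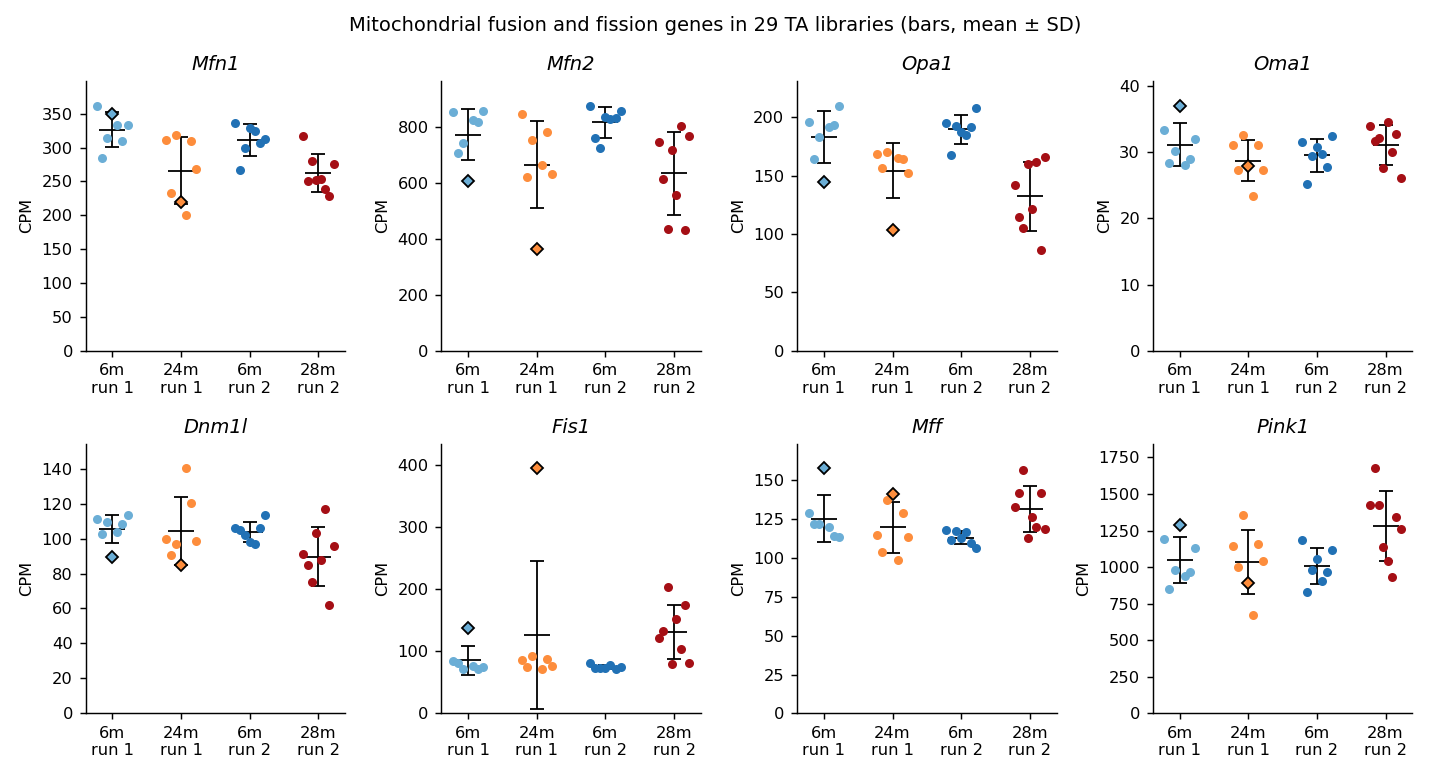
CPM of the 8 genes (vertical axes, from 0) in the 4 groups of libraries; each point is 1 mouse, and the black bars are the mean and SD of 7 libraries, or 8 at 28m. Diamonds mark replicate 4 of the first-run 6m and the 24m group; at 28m all points of Opa1 lie below those of 6m in the second run, and the 24m diamond of Fis1 lies at 395 CPM.

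Opa1 showed the clearest separation of the ages. Its 7 libraries at 6m in the second run lay between 167 and 208 CPM with a median of 191, and its 8 libraries at 28m between 86.5 and 166 CPM with a median of 132. All 28m mice thus lay below all 6m mice, as in 6.18% of the genes tested, and 28m replicate 7 was the lowest. This gave a log2 fold change of -0.54 ± 0.13 (SE, adjusted p = 0.0039, edgeR). The call stayed in each of the 15 fits that left out 1 mouse, with log2 fold changes between -0.60 and -0.47. The gene covers chr16:29579334-29654884 on the plus strand of GRCm38 and has 7875 exonic bases.

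Mfn2, the mitofusin that also tethers mitochondria to the endoplasmic reticulum, had between 724 and 877 CPM at 6m (median 831) and between 432 and 806 CPM at 28m (median 666). 5 of the 8 mice at 28m lay below all 6m mice, with replicates 7 and 3 far under the others, while replicates 6, 8 and 1 lay within the 6m range. Its log2 fold change was -0.39 ± 0.14 (SE, adjusted p = 0.028, edgeR) and missed the threshold without 6m replicate 1 (adjusted p = 0.052) or without 28m replicate 5 (0.051). With the first-run libraries of the same 6m mice as the reference, it was -0.30 and did not pass (adjusted p = 0.13), nor without first-run 6m replicate 4 (-0.36, adjusted p = 0.064). With the trend of each library with length and GC content removed, it was -0.23 by exonic length (adjusted p = 0.084) and -0.09 by transcript length (adjusted p = 0.43), and did not pass. Mfn2 lies at chr4:147873599-147904704 on the minus strand.

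Mfn1, the mitofusin with the stronger tethering of outer membranes, had between 267 and 337 CPM at 6m (median 312) and between 228 and 318 CPM at 28m (median 253). 5 of 8 mice lay below every 6m mouse, and replicate 1 at 28m stood above the 6m median. The log2 fold change of -0.27 ± 0.08 (SE, adjusted p = 0.011, edgeR) passed in all 15 fits without 1 mouse. It did not pass with the trend of each library with length and GC content removed, at -0.11 by exonic length (adjusted p = 0.32) and -0.07 by transcript length (adjusted p = 0.56). The gene lies at chr3:32529465-32579239 on the plus strand.

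Oma1, the protease that acts on Opa1, was the lowest of the 8 genes in CPM, with 25.1 to 32.5 at 6m (median 29.8) and 26.1 to 34.5 at 28m (median 31.9). The groups overlapped over most of their range, and 3 of 8 mice at 28m lay above all 6m mice. Between the ages it differed by 0.05 on the log2 scale, with a 95% interval from -0.10 to 0.19 (adjusted p = 0.63, edgeR). With the trend of each library with exonic length and GC content removed, it was called lower (-0.27, adjusted p = 0.016). By transcript length it was at -0.12 and did not pass (adjusted p = 0.21). Oma1 lies at chr4:103313812-103371868 on the plus strand, with 1 coding transcript of 1915 bases in the annotation.

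Dnm1l, which encodes Drp1, had between 97.0 and 114 CPM at 6m (median 105) and between 61.7 and 117 CPM at 28m (median 89.4). 6 of the 8 mice at 28m lay below all 6m mice and replicate 6 lay above them all. The log2 fold change was -0.24 with a 95% interval from -0.46 to -0.02 and missed the threshold after adjustment (adjusted p = 0.084, edgeR). Without 28m replicate 6, it was -0.31 and passed (adjusted p = 0.022). Dropping any other mouse gave no call, with an adjusted p of up to 0.15 over the 15 fits (edgeR). Nor did it pass under 10 other settings of the processing, by edgeR, limma-voom or DESeq2 (adjusted p between 0.058 and 0.30). Dnm1l lies at chr16:16312230-16358959 on the minus strand, and 243 of its bases overlap an antisense gene, Gm49521, in the annotation.

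As counted, Fis1 changed most of the 8 genes at 28m. Its 6m libraries lay close together, between 72.1 and 81.6 CPM (median 72.8, SD 3.48, n = 7), while the 28m libraries spread from 80.3 to 203 CPM (median 127, SD 43.9, n = 8). 6 of 8 mice at 28m lay above all 6m mice, and replicates 4 and 8, at 80.3 and 80.7 CPM, lay within the 6m range. The log2 fold change was 0.78 ± 0.17 (SE, adjusted p = 0.0024, edgeR) and passed in each of the 15 fits without 1 mouse, between 0.67 and 0.86. With the trend of each library with exonic length and GC content removed, it was 0.40 (adjusted p = 0.0097), under that of Mff (0.49). By transcript length it was 0.24 (adjusted p = 0.036), like that of Opa1 in size (-0.24). Fis1 lies at chr5:136953275-136966234 on the plus strand and has the shortest exonic length of the 8 genes, 1714 bases, and coding transcripts of 601 to 948 bases.

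Mff, the receptor of Drp1, had between 106 and 118 CPM at 6m (median 113) and between 113 and 157 CPM at 28m (median 129). 7 of 8 mice at 28m lay above all 6m mice, and the lowest, replicate 4, lay at the 6m median. The change was small on the log2 scale, 0.19 ± 0.07 (SE, adjusted p = 0.046, edgeR), and passed in only 4 of the 15 fits that left out 1 mouse, those without 28m replicate 4, 5, 6 or 8. In the other 11, those without any 6m mouse or without 28m replicate 1, 2, 3 or 7, the adjusted p was between 0.055 and 0.092. It was 0.054 by limma-voom and 0.089 by edgeR with no filter on low counts. Against the first-run 6m libraries the log2 fold change was 0.05 (adjusted p = 0.68), and 0.10 without first-run 6m replicate 4 (adjusted p = 0.32). With the trend of each library with length and GC content removed, it was 0.49 by exonic length (adjusted p = 0.0028, edgeR). By transcript length it was -0.05 (adjusted p = 0.55). Mff lies at chr1:82724890-82752394 on the plus strand. Its exons cover 9757 bases, of which 195 overlap C430014B12Rik on the other strand, but its 6 coding transcripts measure only 1358 to 2087 bases.

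Pink1 was the most abundant of the 8 genes, with 827 to 1183 CPM at 6m (median 979) and 932 to 1676 CPM at 28m (median 1300.0). 5 of 8 mice at 28m lay above all 6m mice, replicate 2 the highest, and replicates 4, 5 and 6 lay within the 6m range. The log2 fold change of 0.32 ± 0.12 (SE, adjusted p = 0.035, edgeR) passed in 7 of the 15 fits without 1 mouse. In the other 8 fits that left out 1 mouse, without 6m replicate 2, 3, 5 or 6 or 28m replicate 1, 2, 3 or 7, the adjusted p was between 0.0504 and 0.075. Against the first-run 6m libraries the log2 fold change was 0.27 (adjusted p = 0.11), 0.31 without the library that stood apart (0.063), and with no filter on low counts 0.31 (0.064). With the trend of each library with length and GC content removed, it did not pass. It was then 0.21 by exonic length (adjusted p = 0.20, edgeR) and 0.14 by transcript length (0.42). Pink1 lies at chr4:138313409-138326307 on the minus strand, and the annotation places 2 miRNA genes within it.

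The changes of the 8 genes ran with the length of their coding transcripts, a measure added after the data were seen. Ordered by the median length of their coding transcripts, Fis1 (786 bases), Mff (1710), Pink1 (1711) and Oma1 (1915) had log2 fold changes of 0.78, 0.19, 0.32 and 0.05 at 28m. Next came Dnm1l (3264 bases), Mfn1 (3675), Mfn2 (4142) and Opa1 (4730) with -0.24, -0.27, -0.39 and -0.54. A slope with length ran through the whole table. The median log2 fold change was 0.52 over 1617 genes under 2000 exonic bases and -0.24 over 5627 genes of 5000 bases or more. With the genes split by transcript length into 10 classes of like size, the median was 0.58 in the class that holds Fis1 and -0.35 in the class that holds Opa1. Fis1 thus lay above, and Opa1, Mfn2, Mfn1 and Dnm1l below, the median of their length class, while Oma1, Mff and Pink1 shared a class with a median of 0.24, above the first 2 and below Pink1. Opa1, Mfn2, Mfn1, Dnm1l, Oma1, Mff and Pink1 lay within the middle 50% of the genes of their class, and Fis1 just above it (upper bound 0.76). In classes of exonic length, 4 of the 8 lay outside the middle 50%, Fis1 and Mff above it and Mfn2 and Oma1 below it. Mff, the longest of the 8 by that measure, was at 0.19 where the median of its class was -0.29.

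**Figure D2:**
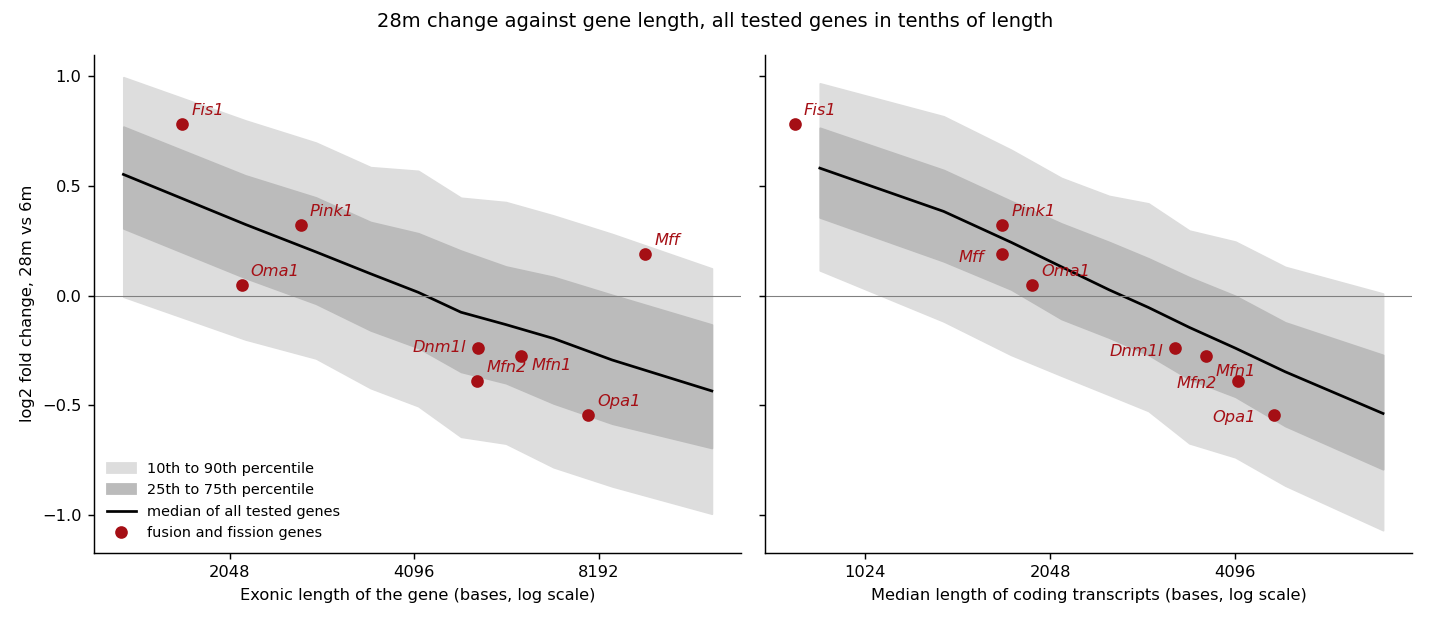
Log2 fold change of 28m against 6m (vertical axis) against exonic length (left) and the median length of coding transcripts (right), on log axes. The line and the grey bands are the median and percentiles of all tested genes in 10 classes of length and the red points the 8 genes, which run from Fis1 at 0.78 to Opa1 at -0.54; Mff lies near the upper edge of the bands by exonic length and near the median by transcript length.

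When each library was freed of its trend with transcript length and GC content, an alternative added after the data were seen, 2 of the 8 genes passed, where 31.7% of all genes did. Opa1 then had a log2 fold change of -0.24 ± 0.08 (SE, adjusted p = 0.036, edgeR). Fis1 had 0.24 ± 0.08 (adjusted p = 0.036). Both kept their direction at a smaller size. A trend with exonic length remained in this fit. The median log2 fold change was 0.11 over genes under 2000 exonic bases, where Fis1 lies, and -0.0042 over those of 5000 or more. Mfn1 (-0.07), Mfn2 (-0.09), Dnm1l (-0.13), Oma1 (-0.12), Mff (-0.05) and Pink1 (0.14) did not pass, and Oma1 and Mff changed sign. With exonic length in place of transcript length, 4 of the 8 genes passed, beside 37.3% of all genes. These were Opa1 at -0.32 (adjusted p = 0.014), Fis1 at 0.40 (0.0097), Mff at 0.49 (0.0028) and Oma1 at -0.27 (0.016), which had not passed as counted. Opa1 and Fis1 passed as counted and under both corrections, in opposite directions.

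**Figure D3:**
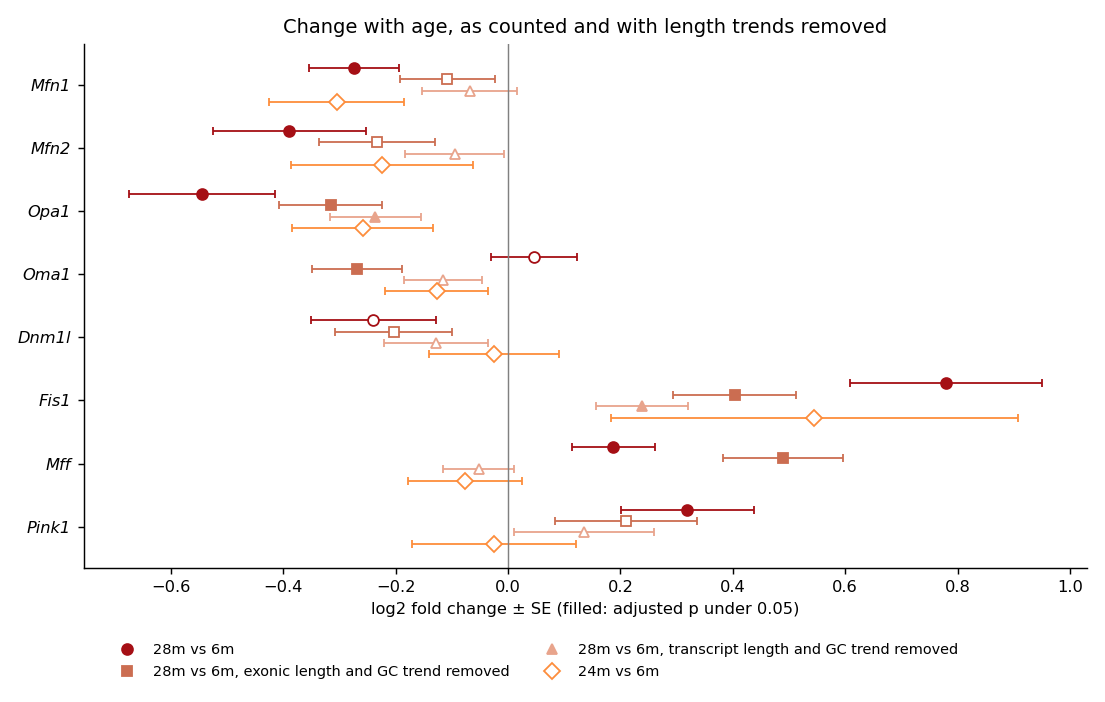
Log2 fold changes (horizontal axis) of the 8 genes with SE bars, for 28m against 6m as counted, with either length trend removed, and for 24m against 6m. Filled symbols passed at an adjusted p under 0.05; those of Opa1 and Fis1 are filled in all 3 fits at 28m, none is filled at 24m, and Oma1 and Mff change sign with the transcript length trend removed.

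Library by library, Fis1 tracked the length slope. The 8 libraries with the lowest slopes, of all 29, were the 8 with the most Fis1, whatever their group. The 7 libraries with the lowest slopes were the 7 with the least Opa1, and the 6 lowest slopes fell on the 6 libraries with the least Mfn2 and on the 6 with the least Dnm1l. Pink1 followed it less. Of its 8 highest libraries, 5 were among the 8 of lowest slope, and 24m replicate 4, with the lowest slope of all, had 892 CPM of Pink1, under most 6m libraries. At 28m, replicates 4 and 8 had slopes of 0.045 and 0.070, the nearest to the 6m libraries. In these 2 mice Fis1 lay within the 6m range, and Opa1, at 160.4 and 166 CPM, lay under the lowest 6m library of the second run at 167 CPM, while in the first run 6m replicates 4 and 2 had 144 and 164 CPM.

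**Figure D4:**
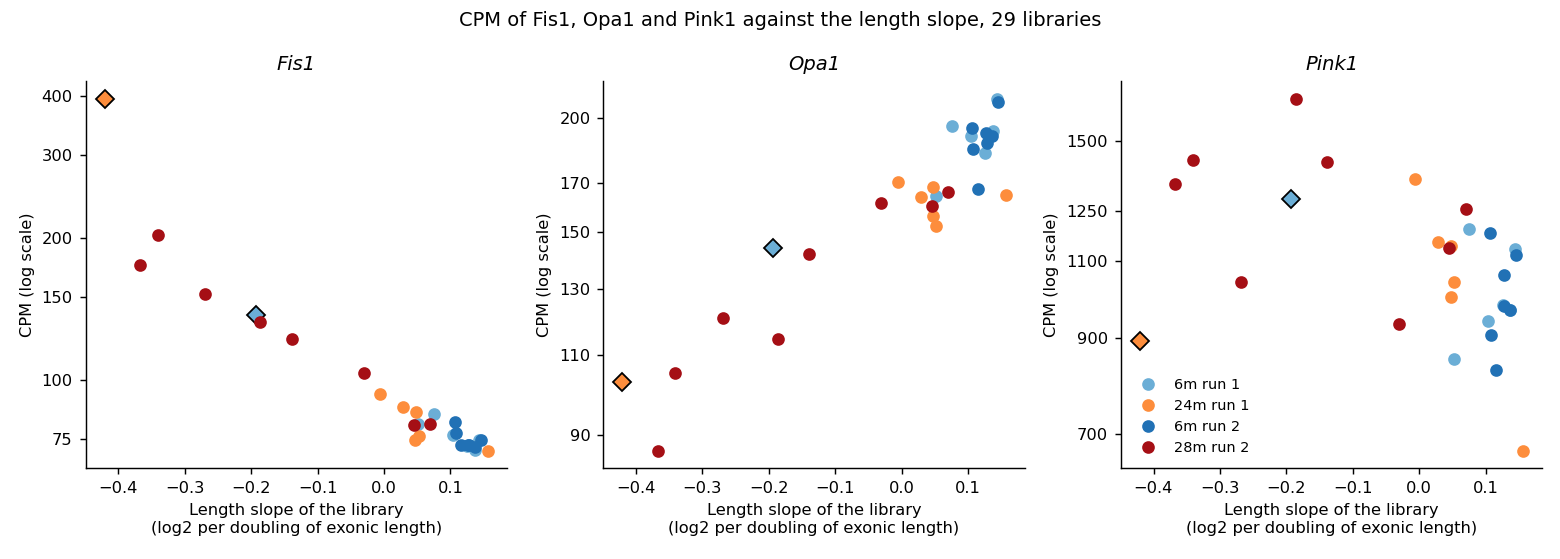
CPM (vertical axes, log scale) of Fis1, Opa1 and Pink1 against the length slope of the library (horizontal axis, log2 per doubling of exonic length), 1 point for each of 29 libraries, coloured by group. Diamonds mark replicate 4 of the first-run 6m and the 24m group; Fis1 falls and Opa1 rises along the slope, and Pink1 scatters, with 892 CPM in the library of lowest slope.

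The bases before the start of the gene are shown for Opa1 and Fis1, which passed in every fit at 28m, and for Mfn1. Mfn1 shares a motif with Fis1, and it was called lower at 28m as counted but with neither length trend removed. The bases shown are the 250 upstream of the start in RefSeq on GRCm38.p6, 5′ to 3′ along the gene. Capitals mark the core of the NRF1 element (GCGCATGCG) in Opa1, and the ETS core bound by GABP (CCGGAAG) in Fis1 and Mfn1. NRF1 and GABP are factors known to bind genes of mitochondrial proteins. The Opa1 stretch is chr16:29579084-29579333 on the plus strand.
Opa1: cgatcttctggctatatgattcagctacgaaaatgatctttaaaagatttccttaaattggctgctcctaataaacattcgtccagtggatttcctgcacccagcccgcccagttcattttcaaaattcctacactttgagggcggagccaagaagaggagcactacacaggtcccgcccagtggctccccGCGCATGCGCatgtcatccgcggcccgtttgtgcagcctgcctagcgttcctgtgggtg
The Fis1 stretch is chr5:136953025-136953274 on the plus strand.
Fis1: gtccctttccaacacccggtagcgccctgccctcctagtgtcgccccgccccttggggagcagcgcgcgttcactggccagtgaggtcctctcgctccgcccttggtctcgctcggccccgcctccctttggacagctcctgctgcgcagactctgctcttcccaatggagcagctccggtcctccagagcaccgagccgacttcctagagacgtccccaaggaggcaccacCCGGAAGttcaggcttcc
The Mfn1 stretch is chr3:32529232-32529481 on the plus strand.
Mfn1: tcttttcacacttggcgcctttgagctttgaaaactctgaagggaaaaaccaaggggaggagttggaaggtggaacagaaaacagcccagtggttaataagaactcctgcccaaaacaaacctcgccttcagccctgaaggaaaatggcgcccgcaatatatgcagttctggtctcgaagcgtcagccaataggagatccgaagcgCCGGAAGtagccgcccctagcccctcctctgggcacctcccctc
Opa1 held 2 overlapping matches, 1 on each strand. Of 32851 promoter entries, 1.45% held the NRF1 core in the 250 bases on either strand and 6.91% the ETS core. The other 5 genes held neither, and none of the 8 held the ERR element (TCAAGGTCA, in 0.387% of promoters), the CRE (TGACGTCA, 1.55%) or the E-box (CACGTG, 6.02%). A match is a match of letters, and binding was not measured.

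Ratios of pairs of the genes were taken within each library. The ratio of Fis1 to Opa1 CPM lay between 0.358 and 0.435 in the second-run 6m libraries and between 0.486 and 2.03 at 28m. In the first-run libraries of the same 6m mice it reached 0.492 in replicate 2 and 0.953 in replicate 4, within the 28m range. The ratio of Mff to Opa1 was 0.599 ± 0.049 (SD, n = 7) at 6m and 1.06 ± 0.36 (SD, n = 8) at 28m, where the lowest library was at 0.705, and first-run 6m replicates 2 and 4 had 0.740 and 1.09. The ratio of Pink1 to Mfn2 was between 1.09 and 1.35 at 6m in the second run and between 1.16 and 3.27 at 28m, and that of Fis1 to Mff between 0.619 and 0.701 and between 0.681 and 1.29, both with overlap. That of Mfn2 to Mfn1, 2 genes of like length, was 2.63 ± 0.14 (SD, n = 7) at 6m and 2.43 ± 0.57 (SD, n = 8) at 28m and overlapped widely. No test was made of these ratios or of the part of the length slope in them.

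Per kilobase of the median coding transcript, the genes in the second-run 6m libraries ranked from Pink1 (588 ± 71.7 CPM per kb, SD, n = 7) over Mfn2 (197 ± 13.1), Fis1 (95.2 ± 4.43), Mfn1 (84.6 ± 6.32), Mff (66.1 ± 2.59), Opa1 (40.1 ± 2.61) and Dnm1l (31.8 ± 1.74) to Oma1 (15.4 ± 1.29). No pair of neighbours in that order overlapped between libraries, though the highest library of Mfn1 (91.6) nearly met the lowest of Fis1 (91.8). At 28m, Fis1 stood at 167 ± 55.9 (SD, n = 8) and Mfn2 at 153 ± 35.8 CPM per kb, with overlapping libraries. Per kilobase of exonic length instead, Mff was the lowest of the 8 genes at 6m, at 11.6 ± 0.45 CPM per kb. Its exonic length is 9757 bases, and its longest coding transcript listed has 2087.

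At 24m, none of the 8 genes had an adjusted p under 0.05 against the first-run 6m libraries, where 0.0840% of 13103 genes passed. Log2 fold changes were between -0.31 for Mfn1 and 0.54 for Fis1, and 7 of the 8 were below 0, with a median of -0.10 beside 0.03 over all genes. By limma-voom and by DESeq2, the count was 0 as well. Mfn1 was the single gene of the 8 with an unadjusted p under 0.05 in edgeR's test across all genes. In no gene did the ages separate completely, as they did in 0.359% of all genes upward and 0.229% downward.

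Mfn1 lay between 199.8 and 319 CPM at 24m (median 268) and between 284 and 362 CPM at 6m (median 333), with 4 of 7 mice under all 6m mice. Its log2 fold change was -0.31 with a 95% interval from -0.54 to -0.07 (adjusted p = 0.37, edgeR). Opa1 lay between 103 and 170.2 CPM at 24m (median 164) and between 144 and 210.0 CPM at 6m (median 191). Of the 24m mice, 1 lay under all 6m mice, replicate 4. The lowest 6m library was the one that stood apart, and 4 of 7 mice lay under the next, at 164.2 CPM. The log2 fold change was -0.26 (adjusted p = 0.43), or -0.23 (adjusted p = 0.091) without both libraries that stood apart. Mfn2 had medians of 663 CPM at 24m and 818 CPM at 6m, with 24m replicate 4 the lowest at 365 CPM. Its log2 fold change was -0.22 (adjusted p = 0.56, edgeR), -0.12 without that library (adjusted p = 0.67) and -0.17 without both libraries (adjusted p = 0.32).

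Fis1 at 24m rested on 1 library. It had 395 CPM in 24m replicate 4 and between 70.8 and 93.2 CPM in the other 6 mice, against 137 CPM in first-run 6m replicate 4 and between 71.2 and 84.5 CPM in the other 6 mice at 6m. The log2 fold change of 0.54 (95% interval from -0.17 to 1.26, adjusted p = 0.53, edgeR) was -0.07 without 24m replicate 4 and 0.08 without both libraries. Dnm1l (-0.03), Pink1 (-0.02), Mff (-0.08) and Oma1 (-0.13) had the log2 fold changes nearest to 0 at 24m, with adjusted p between 0.56 and 0.95. Dnm1l was highest in 24m replicate 5, at 140.2 CPM, a mouse that was the lowest of all 29 libraries for Mfn1, Oma1, Fis1, Mff and Pink1.

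Whether the change at 28m differed from that at 24m was tested in a model of all 29 libraries. None of the 8 genes passed, and of 13455 genes 0.00% did by edgeR or limma-voom, although 1611 had an unadjusted p under 0.05 by edgeR. By edgeR, the largest differences, 28m change less 24m change, were 0.37 for Pink1 (adjusted p = 0.43), 0.28 for Mff (0.41) and -0.27 for Opa1 (0.50), on the log2 scale. By limma-voom, Fis1 had the largest, 0.45 (adjusted p = 0.56). With the exonic trend removed, Opa1 was at -0.07 and Mff at 0.52 (adjusted p = 0.87 and 0.49, edgeR). With the transcript trend removed, they were at -0.01 and 0.099 (0.99 and 0.83). Without 24m replicate 4, Fis1 passed with a difference of 0.88 (adjusted p = 0.039), as did 1657 genes in all. Without 24m replicate 4 and both libraries of 6m mouse 4, the difference of Fis1 was 0.72 (adjusted p = 0.10), and 0 genes passed by edgeR, although 3521 had an unadjusted p under 0.05. The effects at the 2 ages share their 6m mice, prepared anew for each run. The edgeR model did not pair these libraries, and the fits without 24m replicate 4 were not repeated with the mouse as a block.

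The 6m mice gave a measure of what preparing a library again does to these genes. Paired by mouse, none of the 8 differed between the runs, nor did any of 12884 genes (0.00%; 1052 at an unadjusted p under 0.05). Without mouse 4, 186 genes differed between the runs, and none of the 8 was among them. In 6 mice, the second library of Fis1 lay between -0.15 and 0.02 of the first on the log2 scale, and in mouse 4 it was lower by 0.92 (-0.92). Mouse 4 was also the farthest for Mfn2 (0.46), Opa1 (0.38), Mff (-0.48), Oma1 (-0.27), Dnm1l (0.13) and Pink1 (-0.29). For Mfn1 it was not. All 7 mice had less Mfn1, Mff and Pink1 in the second library, with differences down to -0.10 for Mfn1 and, without mouse 4, -0.13 for Mff and -0.05 for Pink1. The fitted shift of Mff between the runs was -0.13 (adjusted p = 0.50, edgeR), beside its change of 0.19 at 28m.

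Other genes that shape mitochondria were examined as lists. Of 23 tested factors of fusion and fission other than the 8, 5 were higher and 4 lower at 28m, where 24.3% of all genes were higher and 22.9% lower, and the median of the log2 fold changes was 0.04. Among them, Fam73b, also called Miga2, which promotes fusion at the outer membrane, fell from 26.0 ± 5.0 to 15.2 ± 3.4 CPM (SD, n = 7 and 8; log2 fold change -0.80, adjusted p = 0.00097, edgeR). Parl, the inner membrane protease that cleaves Pink1, rose from 40.2 ± 2.2 to 58.0 ± 10.1 CPM (SD; 0.50, adjusted p = 0.0014), with all 28m mice above all 6m mice, as in 6.21% of genes. Stoml2, a scaffold of the inner membrane, rose from a mean of 59.5 (54.6 to 65.7) to a mean of 79.9 (65.1 to 104) CPM (log2 fold change 0.40, adjusted p = 0.0036). With the transcript length trend removed, Fam73b (-0.59, adjusted p = 0.0052) and Stoml2 (0.25, 0.040) passed and Parl did not (0.14, 0.065), and the list held 6 higher and 2 lower genes, where 31.7% of all genes passed. With the exonic length trend removed all 3 passed, Parl at 0.44 (adjusted p = 0.0018), and 7 genes were higher and 3 lower, where 37.3% of all genes passed.

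Of 11 genes that organise cristae, 7 were higher and 0 lower at 28m, beside 24.3% and 22.9% of all genes, and the median of the log2 fold changes was 0.36. Chchd6, a subunit of the MICOS complex at cristae junctions, had 2.66 CPM at 6m and 5.38 CPM at 28m (0.99, adjusted p = 0.0016, edgeR), 2410015M20Rik, also called Micos13, had 35.1 and 51.9 CPM (0.54, adjusted p = 0.0017), and Mtx2, of the outer membrane, 30.5 and 44.5 CPM (0.52, adjusted p = 0.0094). Chchd6 and Mtx2 also passed with the transcript length trend removed, and 2410015M20Rik did not (0.02, adjusted p = 0.84), and the list then held 4 higher genes and 1 lower (31.7% of all genes passed). With the exonic trend removed, the same 2 of these 3 genes passed and 6 of the list were higher and 0 lower (37.3% of all genes passed). Opa1, which works with this complex, was lower in both fits.

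Of 20 mitophagy genes, 11 were higher and 2 lower at 28m (median 0.30), beside 24.3% and 22.9% of all genes. The 3 with the smallest p, Map1lc3a (187 CPM at 6m and 392 CPM at 28m), Gabarap (102 and 160.1) and Gabarapl2 (18.5 and 29.2), encode members of the Atg8 family that coat autophagosomes. Their log2 fold changes were 1.04, 0.62 and 0.63, with adjusted p between 0.00056 and 0.0016 by edgeR, and all 3 passed with the transcript length trend removed (0.65, 0.19 and 0.35), when 9 genes were higher and 1 lower and 31.7% of all genes passed. Of the other members of that family on the list, named after their values were seen, Map1lc3b passed as counted (0.41, adjusted p = 0.011) but not with the transcript trend removed (0.18, 0.15), and Gabarapl1 passed in neither fit (0.22 and -0.18, adjusted p = 0.074 and 0.40). With the exonic trend removed, where 37.3% of all genes passed, 10 genes of the list were higher and 2 lower, Map1lc3b was at 0.78 (adjusted p = 0.0035), Gabarapl1 did not pass (-0.05, 0.79) and the first 3 passed. Park2, which encodes Parkin, the partner of Pink1, had 7.16 ± 1.1 CPM at 6m (SD, n = 7) and 8.98 ± 2.2 CPM at 28m (SD, n = 8) and did not pass (log2 fold change 0.30, adjusted p = 0.10), nor with the transcript trend removed (-0.05, 0.89), but passed with the exonic trend removed (0.60, 0.0040); it was named after its values were seen.

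Of 22 genes of the respiratory chain and its surroundings, 15 were higher and 0 lower at 28m, beside 24.3% and 22.9% of all genes, with a median of 0.40. Cox6a2 (674 CPM at 6m and 1080.3 CPM at 28m) and Cox5b (244 and 365), subunits of cytochrome c oxidase, and Ndufv1 (454 and 669), of complex I, had the smallest p (log2 fold changes 0.65, 0.55 and 0.53, adjusted p between 0.0046 and 0.0066, edgeR). With the transcript length trend removed, 1 gene was higher and 0 were lower, where 31.7% of all genes passed, and the median was 0.07. None of the 3 named genes passed then. With the exonic trend removed, 5 genes were higher and 0 lower, where 37.3% of all genes passed, and Ndufv1 was among them (0.38, adjusted p = 0.021). At 24m, none of the genes in these 4 lists passed.

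**Figure D5:**
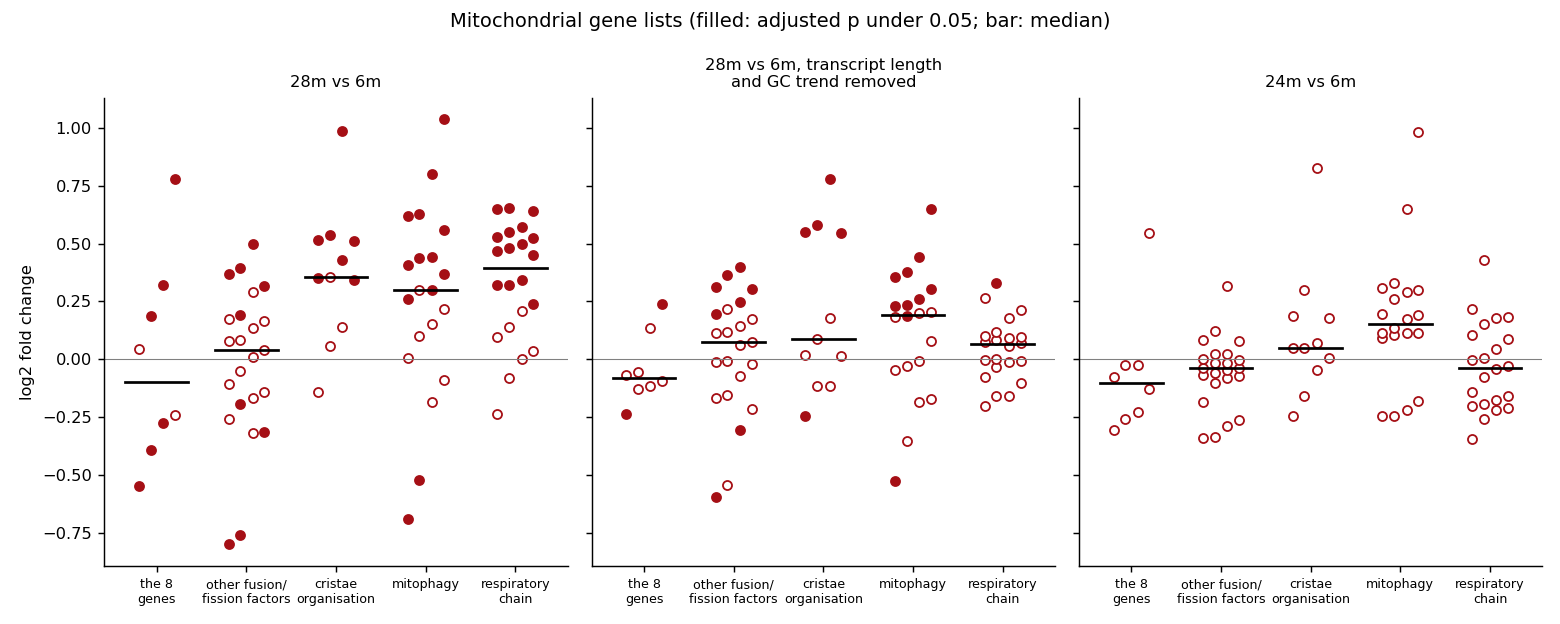
Log2 fold changes (vertical axis) of the 8 genes and of 4 lists of mitochondrial genes, for 28m against 6m as counted, for 28m against 6m with the transcript length and GC trend removed, and for 24m against 6m; each point is 1 gene, filled at an adjusted p under 0.05, and the bar is the median. The median of the respiratory chain list is 0.40 as counted at 28m, 0.07 with the trend removed and -0.04 at 24m, and no point is filled at 24m.

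Profiles over all 29 libraries were compared by the root mean square difference of log2 CPM after each gene was centred on its mean, among 7541 genes of at least 10 CPM. Opa1 was nearest to Klhdc10, which encodes a Kelch-domain protein, at 0.090, where the median gene lay at 0.40 from it. Fis1 was nearest to Nenf, which encodes the secreted protein neudesin and has 742 exonic bases, at 0.084 against a median of 0.62. The nearest to Mfn2 was Tmem201 (0.10), to Mfn1 Zfp768 (0.093), to Oma1 Atp5a1 (0.089), to Dnm1l Dync1li2 (0.099), to Mff Hdac2 (0.072) and to Pink1 Ybx1 (0.13). Among the 8 genes themselves, Opa1 and Mfn2 were nearest to each other, at 0.13, as were Oma1 and Mff, also at 0.13. Opa1 and Mfn2 each lay 0.32 from their own mean by the same measure. Oma1 and Mff lay only 0.14 and 0.16 from theirs, so that their distance is little below that of a flat profile.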

How the data were processed

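The authors aligned 75-base single-end reads of poly-A libraries to mm10 with STAR 2.5.4b and deposited the reads counted per gene as raw counts, without normalization, for 22537 gene symbols in 29 libraries, all of them mapped to samples. The strand setting of the counting is not stated, so reads of overlapping antisense genes cannot be told apart. From these counts, genes were filtered with filterByExpr, scaled by TMM and tested with the quasi-likelihood F test of edgeR 4.0.16 in R 4.3.3, at an adjusted p under 0.05 over all genes of a comparison. Within each run, 28m or 24m mice were compared with 6m mice. Whether the 2 changes with age differed was tested in a 4-group model, and the first and second library of each 6m mouse were compared with the mouse as a block. The authors called genes with DESeq2 1.22.2, and no column of theirs was used.

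The alternatives were limma-voom (limma 3.58.1), DESeq2 1.42.0, its size factors, upper-quartile scaling, no filter, at least 10 counts in every library, the 6m libraries of the other run, length and GC correction, in which a spline trend (4 df) is taken out of every library, the mouse as a replicate block, and each mouse left out in turn. Lengths and positions came from GENCODE for GRCm38, where 20202 of the table's genes were found by symbol and 1897 under a synonym, while the authors counted on a UCSC annotation. Coding transcript lengths, used after the data were seen, were known for 96.3% of the 12994 genes tested at 28m. Promoter sequences came from RefSeq, which matched all 8 genes. Figures were drawn with matplotlib 3.10.9.

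The genes, lists and tests were chosen with earlier results of these data known. All 8 genes are named with their values, and of each other list the 3 genes with the smallest p at 28m. On simulated data made from the 28m comparison, 82.0% of genes changed by 1 on the log2 scale were called, and 74.0% in the 24m comparison. Only 200 genes were changed there, and the simulated libraries had no length slope. Changes smaller than 1, as all those of the 8 genes were, were not simulated, so these shares do not apply to them. The labels and the methods differ in the amount of RNA used, and the design text of the series exchanges the numbers of 24m and 28m mice, for which the labels of the samples were used.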

Additional observations from a re-analysis of the deposited data

Results flagged for a closer look

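In 4 of the 32 combinations of a gene and a group of libraries, 1 library lay far from the rest of its group by Dixon's criterion, which chance alone gives in about 1 in 20 groups. Fis1 in 24m replicate 4 stood at 395 CPM, where the next 24m mouse had 93.2 CPM. Opa1 was lowest in the same library, at 103 CPM, where the next had 153 CPM. In first-run 6m replicate 4, Fis1 stood at 137 CPM (next 84.5 CPM) and Mff at 158 CPM (next 129 CPM). The second library of that mouse had 72.8 CPM of Fis1 and 113 CPM of Mff. Both libraries had the lowest length slope of their group, -0.421 and -0.193, and the part of that slope in these values was not tested.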

How the results depend on the processing

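At 28m, Opa1 and Fis1 passed under all 10 alternatives, with log2 fold changes from -0.58 to -0.24 and from 0.24 to 0.82. Of the 80 values of the 8 genes there, 61 kept their side of the threshold and their direction, 15 lost the threshold and 4 reversed. With the 6m libraries of the other run, 3 of the 8 genes and 2981 of 12984 genes in all passed, and Oma1 was at -0.019. Without the library that stood apart there (first-run 6m replicate 4), 3 of the 8 and 4820 of 13071 genes in all passed. Removing the trend with exonic length put Oma1 at -0.27. Removing that with transcript length left 2 of the 8 genes called, where 31.7% of all genes were, and put Oma1 at -0.12 and Mff at -0.052. At 24m, 11 genes of the table passed as counted, 215 by DESeq2, 4 with at least 10 counts in every library, 46 with the other 6m libraries, 17 with the exonic trend and 18 with the transcript trend removed, 121 without both libraries that stood apart and 31 with the exonic trend removed besides. Reversed values there were Fis1 by DESeq2 (-0.084) and without both libraries with the trend removed (-0.017), Mff (0.059) and Pink1 (0.027) with the other 6m libraries, and Pink1 without both libraries (0.062). For the difference between age effects, Oma1 went to -0.014 with the exonic trend and Mfn2 to 0.11 with the transcript trend removed. The fits with transcript length and without libraries that stood apart were added after the data were seen. The cause of these changes was not tested.

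Leaving out 1 mouse in turn gave between 4 and 7 of the 8 genes at 28m, where between 5297 and 6688 genes passed of 12901 to 13066 tested. At 24m it gave between 4 and 30 genes of the table. The most came without 24m replicate 4 and the fewest without first-run 6m replicate 5 or 6. Among values that reversed at 24m, Dnm1l ranged from -0.10 to 0.023, Fis1 from -0.069 to 0.69 and Pink1 from -0.10 to 0.064. For the difference between age effects, between 0 and 1 of the 8 genes passed, and Mfn1 ranged from -0.026 to 0.11. Between the runs, Dnm1l ranged from -0.040 to 0.0048. With the mouse as a replicate block in the model of all libraries, 0 of the 8 genes passed for the difference. Without the replicate block 0 passed between the runs. In these fits, with no library left out, the pairing changed no call of the 8 genes.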
